A study of Caenorhabditis elegans with 4 samples.

Results

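The genes described here act in oogenesis or are supplied by the mother to the embryo. They are *puf-5*, *puf-6*, *puf-7*, *oma-1*, *oma-2*, *meg-1*, *meg-2*, *gna-2*, *pie-1* and *mex-3*, and they were found by their WormBase symbols among the genes of the deposited count table, 10 of 20380. All 10 were detected in every library and 10 of 10 passed the filter on low counts. The genes were chosen by symbol with earlier results of these data known. Which measured values they were selected on is not recorded, and it may have been any comparison below, so their levels and differences are given as a description and the p-values support nothing beyond it.

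Wild-type N2 animals were grown at 20°C from L1 to L4 on bacteria producing double-stranded RNA against *xrn-2*, which encodes a nuclear 5′→3′ exoribonuclease, or on bacteria with the empty L4440 vector (mock). Poly(A) RNA of whole animals was sequenced from 2 samples per condition, named replicates 1 and 2, so that there are 4 libraries. Mock animals were fed for 40 to 42 h and *xrn-2* RNAi animals, which grow more slowly, for 48 to 52 h, with the mid-L4 stage judged by the vulva. Nothing in the labels says whether the replicates came from separate cultures, so part of the spread between them may be technical. By comparison with an L4 time course, the methods describe the first pair of libraries as well matched in developmental time. They place the second pair later and describe it as less well matched, with mock at a later time point than *xrn-2(RNAi)*. Replicate and developmental time therefore cannot be told apart in these libraries.

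The gonad of a *C. elegans* hermaphrodite makes sperm during the L4 stage and then switches to oocytes, which it makes for the rest of reproductive life. Growing oocytes take up mRNAs and proteins that serve oocyte maturation, the eggshell and the first cell divisions, and many of these mRNAs are held untranslated by RNA-binding proteins until they are needed. Of the genes here, *puf-5*, *puf-6* and *puf-7* encode RNA-binding proteins of the Pumilio family that act together in oocyte formation. *oma-1* and *oma-2* encode paired CCCH zinc finger proteins that are jointly required for oocyte maturation, *mex-3* a KH domain protein that represses maternal mRNAs, and *pie-1* a zinc finger protein that silences transcription in the embryonic germ lineage. *meg-1* and *meg-2* encode proteins of the embryonic P granules, the RNA and protein bodies of the germ lineage, and *gna-2* encodes glucosamine-6-phosphate N-acetyltransferase, which supplies the precursor of eggshell chitin.

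The libraries held 41105706 (mock) and 48451504 (*xrn-2(RNAi)*) reads on genes in replicate 1, and 41998429 (mock) and 43324340 (*xrn-2(RNAi)*) in replicate 2. Counts below are scaled to the mean library total, as in the methods, unless named as reads. The RNAi target *xrn-2* was at 4247 and 6192 scaled reads in mock and at 5265 and 6032 in *xrn-2(RNAi)*. Its log2 fold change was -0.13 under the TMM scaling described below (edgeR's quasi-likelihood test, adjusted p = 0.897, standard error 0.28). By the scaled reads, its level was thus not lower in both pairs. The paper reports that *xrn-2* mRNA accumulates when XRN2 is inactivated, so this level alone does not gauge the depletion. The conditions are given as the libraries are labelled. Across the 13967 genes with a mean of at least 50 scaled reads, the median log2 difference of *xrn-2(RNAi)* against mock was 0.17 for the first pair and 0.34 for the second. TMM scaling, which aligns the bulk of the genes, brought these medians to -0.004 and -0.025.

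All 10 genes were lowest in mock replicate 1 and higher in both libraries of replicate 2 than in both of replicate 1. Together they had 4162 scaled reads in mock replicate 1, 17459 in *xrn-2(RNAi)* replicate 1, 39030 in mock replicate 2 and 46105 in *xrn-2(RNAi)* replicate 2. These sums are 0.00952%, 0.0399%, 0.0893% and 0.105% of all reads on genes. Of the 13967 genes, 34.8% were lowest in mock replicate 1, and in 16.2% the libraries of replicate 2 both lay above those of replicate 1. The full order of mock 1, *xrn-2(RNAi)* 1, mock 2 and *xrn-2(RNAi)* 2 held for 10 of the 10 genes and for 9.59% of all genes. With TMM scaling this order held for 3 of the 10, because the libraries of replicate 2 changed places, and for 1245 of the 13967 genes. Both libraries of replicate 2 still lay above those of replicate 1 in 10 of the 10, against 3115 of the 13967 genes. In whole animals, fewer oocytes or germ cells and less RNA per cell cannot be told apart.

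**Figure D1:**
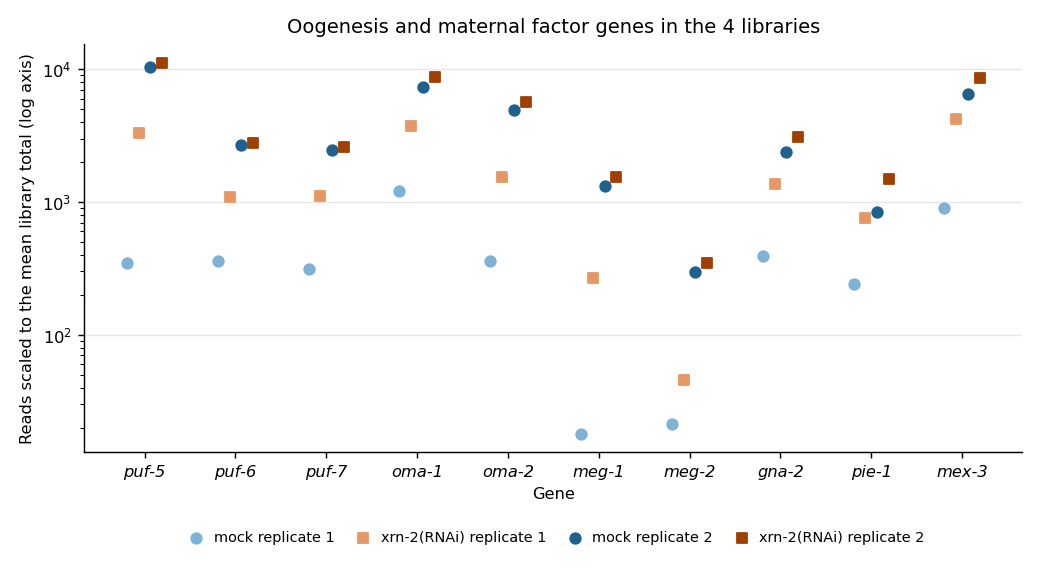
Reads scaled to the mean library total (vertical log axis) for each of the 10 genes (horizontal axis), 1 point per library, circles for mock and squares for *xrn-2(RNAi)*, light for replicate 1 and dark for replicate 2. The lightest circle, mock replicate 1, is the lowest point of every gene, and the points of replicate 2 are the highest pair of each.

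The Pumilio family genes were followed first. *puf-5* had 346 scaled reads in mock replicate 1, 3292 in *xrn-2(RNAi)* replicate 1, 10358 in mock replicate 2 and 11191 in *xrn-2(RNAi)* replicate 2. It was therefore among the lower of the 10 genes in the first of these libraries and the highest in the last. *puf-6* had 359, 1092, 2692 and 2780 scaled reads in the same order. *puf-7* had 312, 1101, 2441 and 2594. The values of *puf-6* and *puf-7* were close to each other in every library, and since the genes are nearly identical, the counting could have divided shared reads between them. In mock, *puf-5* was 30.0-fold higher in replicate 2 than in replicate 1, while *puf-6* was 7.49-fold and *puf-7* 7.83-fold higher. Between the *xrn-2(RNAi)* libraries these ratios were 3.40, 2.55 and 2.36. Thus the libraries of mock were further apart than those of *xrn-2(RNAi)* for all 3 genes.

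Of the zinc finger genes required for oocyte maturation, *oma-1* had 1218 scaled reads in mock replicate 1, 3749 in *xrn-2(RNAi)* replicate 1, 7265 in mock replicate 2 and 8747 in *xrn-2(RNAi)* replicate 2. *oma-2* had 357, 1552, 4890 and 5667. Both genes were ordered alike over the libraries, and *oma-2* spanned the wider range. Mock replicate 2 was 5.97-fold above mock replicate 1 for *oma-1* and 13.7-fold above it for *oma-2*.

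The other RNA-binding proteins differed in how close the libraries lay. *mex-3* had 898, 4238, 6526 and 8632 scaled reads in mock 1, *xrn-2(RNAi)* 1, mock 2 and *xrn-2(RNAi)* 2. *pie-1* had 240, 762, 844 and 1497. For *pie-1*, *xrn-2(RNAi)* replicate 1 and mock replicate 2 were thus nearly level, and *xrn-2(RNAi)* replicate 2 was 1.77-fold above mock replicate 2, the largest ratio of the 10 genes in that pair. In the reference annotation, 24 of the 1116 exon bases of *pie-1* overlap exons of *snr-6* on the opposite strand, and whether the reads were counted by strand is not given in the sources used here. The eggshell gene *gna-2* had 392, 1362, 2394 and 3105 scaled reads, close to the pattern of *mex-3* at a lower level.

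The *meg* genes, adjacent on chromosome X, had the lowest levels of the 10 per kilobase of exon, although in reads *pie-1* was below *meg-1* in both libraries of replicate 2. For *meg-1*, 17 reads were counted in mock replicate 1 (95% Poisson interval 9.90 to 27.2, counting error only), 295 in *xrn-2(RNAi)* replicate 1, 1270 in mock replicate 2 and 1531 in *xrn-2(RNAi)* replicate 2. For *meg-2* the reads were 20 (12.2 to 30.9), 51, 286 and 343. *meg-1* was thereby 73.1-fold higher in mock replicate 2 than in mock replicate 1, the widest ratio of the 10 genes, after scaling. *meg-2* was the gene that differed least between the libraries of replicate 1, by 2.16-fold, and the one that differed most between those of *xrn-2(RNAi)*, by 7.52-fold.

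Levels of different genes were compared per kilobase of exon, with exon lengths of the WBcel235 annotation, which is not the build of the files. Averaged over the 4 libraries, *puf-5* was the highest with 3043 ± 2571 scaled reads per kilobase (SD, n = 4), followed by *oma-1* (2912 ± 1891), *mex-3* (2485 ± 1622), *oma-2* (2016 ± 1658) and *gna-2* (1602 ± 1049). Then came *puf-6* (920 ± 638), *puf-7* (875 ± 595), *pie-1* (749 ± 462), *meg-1* (333 ± 320) and *meg-2* (61.1 ± 57.7). In 9 of the 9 neighbouring pairs of this order, the gap was smaller than the larger of the SDs. These SDs include the differences between conditions and replicates, which the genes share, so they do not measure how firm the order is. The order itself was not the same in every library. *oma-1* was the highest per kilobase in both libraries of replicate 1 and *puf-5* in both of replicate 2, where *puf-5* stood at 5006 and 5409. In mock replicate 1, *puf-5* was at 167 scaled reads per kilobase, in place 8 of 10. *meg-1* and *meg-2* held places 9 and 10 in every library.

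The division of reads within pairs of related genes does not depend on the scaling of the libraries. *puf-6* took 53.6% of the reads of *puf-6* and *puf-7* in mock replicate 1 (exact binomial 95% interval 49.6 to 57.5), 49.8% in *xrn-2(RNAi)* replicate 1 (47.8 to 51.8), 52.4% in mock replicate 2 (51.0 to 53.8) and 51.7% in *xrn-2(RNAi)* replicate 2 (50.4 to 53.1). This pair stayed near even, but reads shared by these nearly identical genes could have been divided between them in the counting. The intervals do not cover such a division, which was not tested. *oma-1* took 77.3% of the reads of the *oma* pair in mock replicate 1 (75.1 to 79.4), 70.7% in *xrn-2(RNAi)* replicate 1 (69.5 to 71.9), 59.8% in mock replicate 2 (58.9 to 60.7) and 60.7% in *xrn-2(RNAi)* replicate 2 (59.9 to 61.5). The *oma-1* share was higher in the libraries of replicate 1 than in those of replicate 2, and only the intervals of the latter overlapped each other. *meg-1* took 45.9% of the reads of the *meg* pair in mock replicate 1, where the pair had 37 reads (29.5 to 63.1), against 85.3% (81.1 to 88.8), 81.6% (79.6 to 83.5) and 81.7% (79.9 to 83.4) in the other libraries. These intervals cover counting error only and not the spread between samples.

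**Figure D2:**
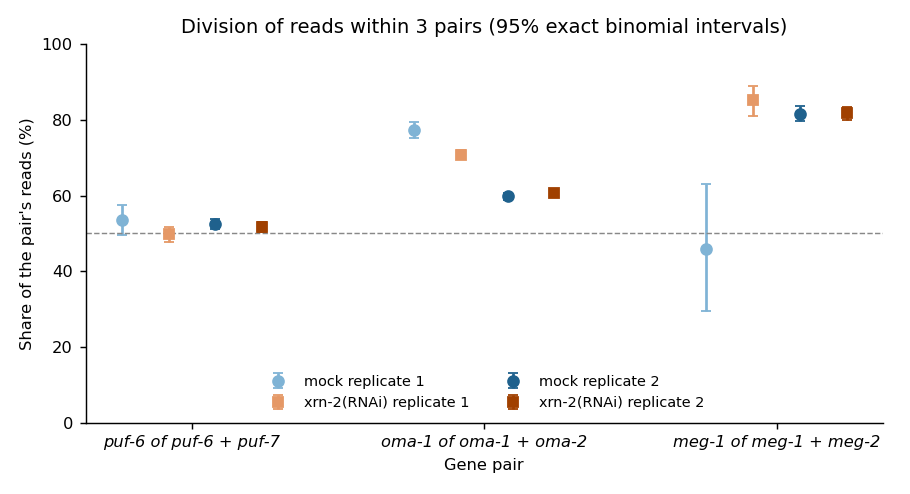
Share of the reads of 3 gene pairs that fell on the first gene of each (percent, vertical axis), by library, with exact binomial 95% intervals and a dashed line at 50%. The *puf-6* share lies between 49.8% and 53.6% in all libraries, the *oma-1* share between 59.8% and 77.3%, and the *meg-1* share is lowest in mock replicate 1, at 45.9% with the widest interval.

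The libraries were sequenced to look at genes in operons upon depletion of XRN2, and the same comparison is given here for the 10 genes. Within replicate 1, all 10 genes, against 58.6% of all genes, were higher in the library labelled *xrn-2(RNAi)* than in mock, by a log2 difference of 0.88 (*meg-2*) to 3.39 (*meg-1*), with a median of 1.78 after 8 was added to each scaled count. *puf-5* (3.22), *mex-3* (2.23) and *oma-2* (2.09) followed *meg-1*. On this scale 9 of the 10 genes were at least 2-fold higher, against 11.6% of all genes, and with 1 added in place of 8 it was 10 of the 10, with *meg-2* included. Within replicate 2 the differences were small. They ran from 0.05 (*puf-6*) to 0.82 (*pie-1*) with a median of 0.22, and 0 of the 10 genes were at least 2-fold higher, against 19.9% of all genes. All 10 lay above 0, as did 72.7% of all genes, whose median was 0.34, and the direction rested on the scaling. With TMM scaling, 3 of the 10 genes (*pie-1*, *mex-3* and *gna-2*) were above 0 in replicate 2, the median was -0.15 and *puf-6* had the lowest value, -0.32. In replicate 1, TMM scaling left 10 of 10 above 0 with a median of 1.62. As these differences set single libraries against each other, none of them was tested.

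Over both replicates, none of the 10 genes passed an adjusted p of 0.05 in edgeR's quasi-likelihood test of *xrn-2(RNAi)* against mock with the replicate as a block, and 0% of the 16178 genes tested were called higher or lower (2020 had an unadjusted p under 0.05, the 10 genes not among them). The smallest adjusted p of the 10 was that of *pie-1*, with a log2 fold change of 0.97 (standard error 0.41, adjusted p = 0.471 in edgeR). *meg-1* had the largest fold change, 1.66 (standard error 1.22, adjusted p = 0.681), and *puf-5* the next, 1.40 (standard error 1.05, adjusted p = 0.685). For *mex-3* it was 1.05 and for *oma-2* 0.89, while *meg-2* had the smallest, 0.36 (standard error 0.52, adjusted p = 0.851). DESeq2, fitted with the same terms, called 1306 genes (8.07%) higher and 1440 (8.9%) lower, but 0 of the 10 genes were among them, *pie-1* again having the smallest adjusted p, 0.0966. Without the block the fold changes were smaller, 0.09 for *puf-5*, 0.08 for *meg-1*, 0.12 for *oma-2* and 0.74 for *pie-1*, and that of *meg-2* was below 0. Leaving out mock replicate 1 or *xrn-2(RNAi)* replicate 2, again without the block, gave values below 0 for 9 of the 10 genes. Each of these fits set 1 library of a condition against both of the other. The replicates were then unbalanced, so these values mix condition with replicate and show no reversal within a replicate. For *puf-5* the *xrn-2(RNAi)* difference was larger by 3.11 in replicate 1 than in replicate 2, for *meg-1* by 3.17, and for *meg-2*, the least, by 0.67. Whether these differences between replicates exceed the spread cannot be tested with 1 library of each kind.

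**Figure D3:**
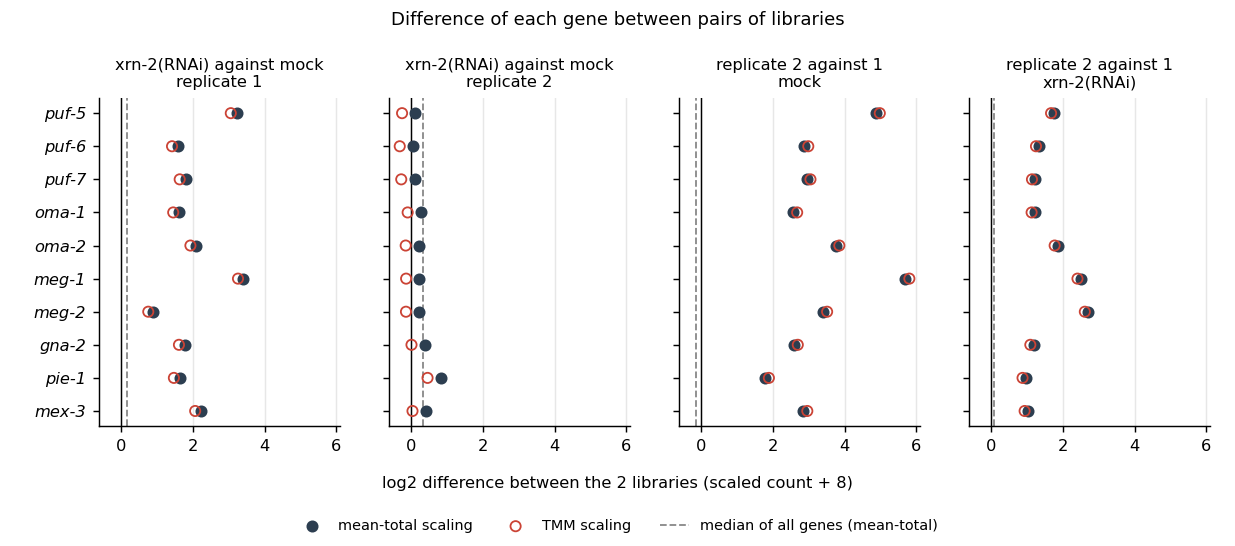
log2 difference of each gene (vertical axis) between 2 libraries (horizontal axis, scaled count + 8), in 4 panels for *xrn-2(RNAi)* against mock within each replicate and for replicate 2 against replicate 1 within each condition; filled points are scaled to the mean total, open points with TMM, and the dashed line is the median of all genes. The filled points of the second panel lie between 0.05 and 0.82 and 7 of the open points there lie below 0, whereas all points of the other panels lie above 0.

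Between the replicates, the 10 genes stood further apart in mock than in *xrn-2(RNAi)*. The mock libraries were also further apart over all 13967 genes. In mock, 1324 of these were at least 2-fold higher and 2468 lower in replicate 2, against 1008 and 904 in *xrn-2(RNAi)*. In mock, they were higher in replicate 2 by a log2 difference of 1.78 (*pie-1*) to 5.67 (*meg-1*), with a median of 2.91, and 10 of 10 were at least 2-fold higher, against 9.48% of all genes, of which 43.1% were higher at all. In *xrn-2(RNAi)*, the difference was 0.97 (*pie-1*) to 2.71 (*meg-2*) with a median of 1.29, and 9 of 10 were at least 2-fold higher, against 7.22% of all genes, of which 55.4% were higher at all. The median of all genes was -0.14 and 0.07 in these comparisons. *puf-5* (4.87) and *oma-2* (3.74) followed *meg-1* in mock, whereas *meg-1* (2.50) and *oma-2* (1.86) followed *meg-2* in *xrn-2(RNAi)*. The place of *oma-2* in mock rests on the 8 added to each scaled count. Without it, *meg-2*, with 20 reads in mock replicate 1, was 14.0-fold higher in mock replicate 2 and *oma-2* 13.7-fold. The difference in mock and the *xrn-2(RNAi)* difference of replicate 1 both use mock replicate 1 and are not independent of each other.

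For the replicate term of the same edgeR fit, the log2 fold change of replicate 2 over replicate 1 was 1.40 (*pie-1*) to 4.26 (*meg-1*) with a median of 2.12. None of the 10 genes passed, each having an adjusted p of 0.52, and 0% of the 16178 genes were called higher (1506 genes had an unadjusted p under 0.05, among them these 10). With DESeq2, 1294 genes (8%) were called higher in replicate 2 and 1106 (6.84%) lower, and the 10 genes were all called higher, with adjusted p-values up to 0.0496 (*puf-5*). The tools thus disagreed on the same counts.

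Other genes of the gonad and markers of other tissues were read from 8 lists with 73 genes. Among 17 other oocyte and maternal genes, most of them RNA regulators, 17 were at least 2-fold higher in mock replicate 2 than in mock replicate 1, with a median log2 difference of 3.15, and 12 were so between the *xrn-2(RNAi)* libraries (median 1.40). The yolk receptor gene *rme-2* (3.92) and *nos-2* (3.82), a Nanos family regulator of germ cell development, had the largest differences in mock, and *daz-1* (1.198) and the Y-box protein gene *cey-3* (1.40) the smallest. *cey-2*, the most abundant, had 9395 scaled reads in mock replicate 1, 32415 in *xrn-2(RNAi)* replicate 1, 44479 in mock replicate 2 and 49376 in *xrn-2(RNAi)* replicate 2. These libraries stood in the same order as for the 10 genes. Against mock, 16 of the 17 were at least 2-fold higher in *xrn-2(RNAi)* of replicate 1 and 0 in replicate 2. Of the 17, edgeR called 0 in either term, and DESeq2 called 14 higher in replicate 2 and 0 in *xrn-2(RNAi)*.

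Of 12 genes for the eggshell and egg activation, 11 were at least 2-fold higher in mock replicate 2 than in mock replicate 1 (median 3.39) and 9 were so between the *xrn-2(RNAi)* libraries (median 1.35). The eggshell genes *perm-2* (5.19) and *perm-4* (4.93) had the largest differences. In replicate 1, *perm-2* was at 506 scaled reads in mock and 3050 in *xrn-2(RNAi)*, while in replicate 2 it was at 18790 in mock and 7805 in *xrn-2(RNAi)*. It was hence lower in *xrn-2(RNAi)* than in mock in the second pair (log2 difference -1.27). So were *perm-4* (-0.84) and *egg-5* (-0.16), while the rest of the list was higher. None of the 10 genes was lower at this scaling, but with TMM scaling only 3 of the 10 were above 0 in that pair. The most abundant, *cpg-2*, a chondroitin proteoglycan gene, had 1851, 13930, 27017 and 39077 scaled reads in mock 1, *xrn-2(RNAi)* 1, mock 2 and *xrn-2(RNAi)* 2. The kinase gene *mbk-2* differed least, by 0.45 between the mock libraries, and then *egg-5*, by 2.25. DESeq2 called 6 of the 12 higher in replicate 2 and 1 higher in *xrn-2(RNAi)*, while edgeR called 0 in either term.

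The list meant to cover germ cells of all stages differed less between the libraries. It includes genes that act at particular stages, such as stem cells or meiosis. The ratios to this list given below are therefore not RNA per germ cell. Of its 12 genes, 4 were at least 2-fold higher in mock replicate 2 than in mock replicate 1 (median 0.39) and 0 between the *xrn-2(RNAi)* libraries (median 0.17). *cgh-1*, an RNA helicase gene, had 19569 and 97594 scaled reads in the mock libraries and 54091 and 103643 in those of *xrn-2(RNAi)*, whereas the stem cell regulator *fbf-2* had 807 and 789 in the former and 908 and 921 in the latter. The P granule gene *pgl-3* had the next largest difference after *cgh-1* between the mock libraries, 1.52, and *syp-1*, for the synaptonemal complex of meiosis, had a difference of 0.005. Of the 12 genes, 10 were lowest in mock replicate 1 and 5 also had both libraries of replicate 2 above those of replicate 1. For every 100 reads of this list, the 10 oogenesis and maternal genes had 5.39 reads in mock replicate 1, 12.4 in *xrn-2(RNAi)* replicate 1, 21.2 in mock replicate 2 and 24.3 in *xrn-2(RNAi)* replicate 2. Against mock replicate 1, these ratios were 2.29-fold, 3.94-fold and 4.50-fold higher. Since *cgh-1* made up 25.3% to 54.5% of the list's reads, the ratio was also taken without it, a choice made after its values were seen, and was then 2.77-fold, 6.25-fold and 7.40-fold higher. With the medians of the log2 ratios over each list in place of sums, it was 2.24-fold, 5.85-fold and 5.03-fold higher, so that the order of the libraries of replicate 2 turned.

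The 12 genes for sperm fate and sperm had another pattern. Between the mock libraries 1 was at least 2-fold higher and 1 lower in replicate 2 (median -0.01), and between the *xrn-2(RNAi)* libraries 0 were higher and 2 lower (median -0.65). *fog-3*, needed for germ cells to become sperm, had 291 and 90.6 scaled reads in the mock libraries and 457 and 247 in the *xrn-2(RNAi)* libraries, replicate 1 given first. *fog-1*, which also directs sperm fate, had 205 and 471 in mock, against 927 and 1443 in *xrn-2(RNAi)*. It was thus higher in *xrn-2(RNAi)* of both replicates, by 2.13 and 1.60 on the log2 scale. *spe-4*, needed in sperm formation, was higher in replicate 1 of each condition, with 2135 against 1299 scaled reads in mock and 2370.5 against 1055 in *xrn-2(RNAi)*. *gsp-3*, a sperm phosphatase gene and the most abundant of the list, was lowest in mock replicate 1, with 3471 and 6332 in mock against 6674 and 6992 in *xrn-2(RNAi)*. The list's sum was also lowest there, at 16351 scaled reads, and at 21236 in mock replicate 2 and 27651 and 24694 in *xrn-2(RNAi)*. Of the 12 genes, 6 were lowest in mock replicate 1, and 0 had both libraries of replicate 2 above both of replicate 1. For every 100 reads of the sperm list, the 10 genes had 25.5 reads in mock replicate 1, 63.1 in *xrn-2(RNAi)* replicate 1, 184 in mock replicate 2 and 187 in *xrn-2(RNAi)* replicate 2.

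**Figure D4:**
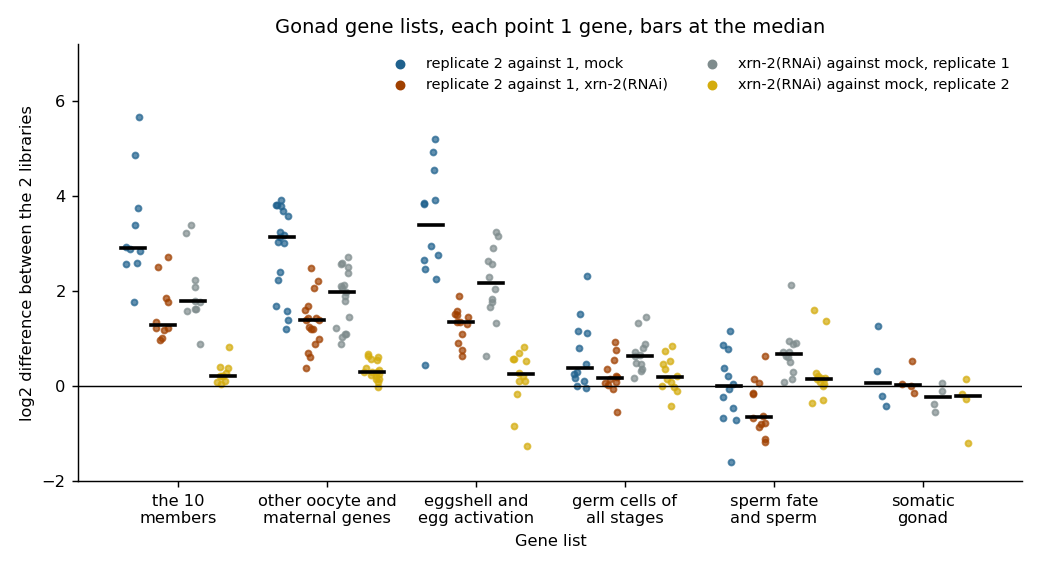
log2 difference of each gene (points, vertical axis) between 2 libraries for the 10 genes and for 5 lists of gonad genes (horizontal axis), in 4 colours for the comparisons named in the key, with bars at the medians; genes with a mean under 50 scaled reads are left out. In the blue comparison, mock replicate 2 against replicate 1, the bars of the first 3 columns stand at 2.91, 3.15 and 3.39, those of the germ cell, sperm and somatic gonad lists at 0.39, -0.01 and 0.06.

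Of 19 markers of other tissues found, 3 were lowest in mock replicate 1 and 5 had both libraries of replicate 2 above both of replicate 1, as the 10 genes did. Both held for 2 of them, *myo-2*, a pharynx muscle myosin gene with 6730 and 17963 scaled reads in mock and with 8700 and 15780 in *xrn-2(RNAi)*, and *inx-8*, and the other 3 of the 5 were *myo-1*, *ifb-2* and *inx-9*. The muscle and intestinal genes were named after their values were seen. The 5 somatic gonad genes summed to 3831 and 4757 scaled reads in mock and to 3080 and 3341 in *xrn-2(RNAi)*, with the sheath gap junction gene *inx-8* at 839 and 2016 in mock, against 875 and 878 in *xrn-2(RNAi)*. Between the mock libraries *inx-9* differed by 0.33, *lim-7* by -0.41 and *ceh-18*, the most abundant, by -0.21. The 5 muscle genes summed to 350031 and 481028 in mock and to 368950 and 359589 in *xrn-2(RNAi)*, and the 5 neuronal genes to 9275 and 6997 and to 9334 and 9828. Of the 5 intestinal genes listed, the 4 found summed to 58094 and 116258 in mock and to 46035 and 35725 in *xrn-2(RNAi)*. Of these 4 sums, that of muscle was lowest in mock replicate 1, with 1.37-fold between its lowest and highest library, and the others were lowest elsewhere. The part of these tissues in the differences of the 10 genes was not tested. All of the defining markers found had reads in each library.

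The genes with the most similar pattern were looked for among the 13957 other genes with a mean of at least 50 scaled reads. Likeness was the distance between a gene's log2 values, centred over the 4 libraries, and the median centred profile of the 10 genes, which was -1.95, -0.14, 1.01 and 1.15 in mock 1, *xrn-2(RNAi)* 1, mock 2 and *xrn-2(RNAi)* 2. The nearest was *mex-5* (distance 0.13), with 1773, 7016, 14495 and 16170 scaled reads, followed by *mex-6* (0.22). Both encode zinc finger proteins that polarise the early embryo. Next came *rmd-1*, WBGene00020304, *Y75B12B.1*, *nasp-2*, the chitin synthase gene *chs-1*, *grif-1*, *ule-4* and the cyclin B gene *cyb-2.1*, at distances of 0.23 to 0.30. The 10 genes themselves lay at 0.07 (*puf-7*) to 2.26 (*meg-1*) from their median profile, and 210 other genes lay within 1. With 4 libraries the distance describes their values only.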

How the data were processed

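Sequencing of poly(A)-selected RNA from wild-type (N2) worms fed mock or *xrn-2* RNAi bacteria gave 4 libraries, assigned to condition and replicate by their titles. The authors aligned TruSeq reads to ce10 with the qAlign function of QuasR, sorted them with Samtools 1.2 and deposited unnormalized counts, in which each of 20380 WS220 genes has the reads on its exons. For these libraries, the methods describe no removal of duplicate molecules. Symbols came from the reference naming table (19179 identifiers matched) and exon lengths from the WBcel235 annotation by gene identifier. No coordinates are given, since that is another build.

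Each library's counts were brought to a common total of 43719995, the mean of the 4, and log2 differences were taken after adding 8. Every gene passing filterByExpr was tested with edgeR 4.0.16 in R 4.3.3 (quasi-likelihood, TMM, Benjamini-Hochberg), with terms for condition and replicate, because the methods take fold changes within a replicate. Standard errors are the absolute log2 fold change over the square root of F. DESeq2 1.42.0 was the other tool. No exact permutation test was run, as its smallest two-sided p at 2 libraries a condition is 0.333.

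The 10 genes, the lists and the tests were chosen with earlier results of these data known. By rule, the text names the 10 genes, in each gonad list the 2 highest, 2 lowest and most abundant genes, and the 10 nearest profiles. The alternatives were a pseudocount of 1, other scalings, no filter, no replicate block, DESeq2, each library or replicate left out, *puf-6* and *puf-7* left out, and medians in place of sums for the ratio to the germ cell list.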

Additional observations from a re-analysis of the deposited data

How the results depend on the processing

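The samples share replicate numbers, and the deviations of mock and *xrn-2(RNAi)* libraries of one number from their condition means were correlated (r = 0.57 across 16178 genes, which are not independent), but only 2 pairs exist and the labels name no shared culture. With no replicate block, 0 genes were called for *xrn-2(RNAi)* against mock (1644 at an unadjusted p under 0.05), as with the block, and the log2 fold change of *meg-2* turned to -0.055, while those of the other 9 genes fell to between 0.01 (*puf-6*) and 0.74 (*pie-1*). With DESeq2, 2746 genes were called for the condition and 2400 for the replicate term, against 0 with edgeR. Leaving out 1 library at a time, 0 genes were called for the condition in any fit and 0 to 668 for the replicate term, the 668 without *xrn-2(RNAi)* replicate 2, with none of the 10 genes among them. These fits have no term for the other factor and are unbalanced in it, so their fold changes mix condition with replicate. Without mock replicate 1 the condition log2 fold change turned to -0.88 (*puf-5*), -0.83 (*puf-6*), -0.75 (*puf-7*), -0.57 (*oma-1*), -0.80 (*oma-2*), -0.91 (*meg-1*), -0.97 (*meg-2*), -0.45 (*gna-2*) and -0.37 (*mex-3*). Without *xrn-2(RNAi)* replicate 2 it turned to -1.02 (*puf-5*), -0.79 (*puf-6*), -0.63 (*puf-7*), -0.48 (*oma-1*), -1.07 (*oma-2*), -1.66 (*meg-1*), -2.11 (*meg-2*), -0.34 (*gna-2*) and -0.12 (*mex-3*). *pie-1* stayed above 0 (0.07 to 1.99), and the highest values of the other 9, with 1 library left out, were 2.11 (*oma-1*) to 5.37 (*meg-1*). The replicate log2 fold change of all 10 genes was above 0 in every fit, from 0.66 (*pie-1*) to 6.24 (*meg-1*). Its sign could not turn, since both libraries of replicate 2 lay above both of replicate 1 for each of these genes. Relative to the germ cell list, the ratios in mock and *xrn-2(RNAi)* of replicate 2 moved to 6.25 and 7.40 without *cgh-1*, and were 5.85 and 5.03 as medians of log2 ratios, in the opposite order. Over the scalings, pseudocounts and the omission of *puf-6* and *puf-7*, the median *xrn-2(RNAi)* difference of the 10 genes in replicate 1 was 1.62 to 1.93. The median of replicate 2 against 1 was 2.91 to 3.12 in mock and 1.19 to 1.49 in *xrn-2(RNAi)*. In replicate 2 the *xrn-2(RNAi)* median changed sign, from 0.22 to -0.15 with TMM and -0.16 with median-of-ratios scaling. Depth limited *meg-1* and *meg-2* in mock replicate 1, with 17 and 20 reads.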
